A study of Mus musculus with 12 samples.

Results

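This section describes 42 genes of the interferon response and of cytosolic nucleic acid sensing in 12 mammary tumors from 9 female MADM-mutant mice. The genes were chosen by symbol, all 42 were found among the 47593 genes of the deposited table, and all 42 were among the 16802 genes with a mean of at least 1 TPM (a length-scaled transcript abundance with a fixed total per tumor) over mice. MADM (mosaic analysis with double markers) makes rare GFP+ cells that have lost both Brca1 and p53 through recombination between homologous chromosomes 11 in a heterozygous mouse, here driven by MMTV-Cre in mammary epithelium. The labels give the genotype of every tumor as MADM RG;GR alleles on a mixed background and the treatment as none, and no age is given there. All tumors were of one condition with no normal gland beside them, so the data hold differences between tumors and no effect of genotype. Each tumor also held heterozygous host cells, including stroma and leukocytes. Tumors 3 and 4 came from one mouse, tumors 10, 11 and 12 from another, and 7 mice gave 1 tumor each, so sister tumors were averaged before any spread or test.

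Type I interferons bind the receptor chains Ifnar1 and Ifnar2, and the transcription factors Stat2 and Irf9 then help to switch on interferon-stimulated genes, many of which block the entry, translation or replication of viruses. Cells start interferon production when receptors detect nucleic acid in the wrong place. cGAS (gene Mb21d1) detects DNA in the cytosol and signals through STING (Tmem173), RIG-I (Ddx58) and MDA5 (Ifih1) detect double-stranded RNA, and the kinase Tbk1 with Irf3 relays both signals. Loss of BRCA1 is known for leaving DNA breaks, and fragments that reach the cytosol can engage cGAS. Interferon gamma, made by T and NK cells, acts through its own receptor and induces a partly distinct group of guanylate-binding proteins and immunity-related GTPases.

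Tumor 2 stood apart and went against its label. It listed Epcam and Krt14 at 0, Cdh1 at 0.12 TPM and Krt8 at 0.33 TPM, and had 609 TPM of Cd79a and 675 TPM of Cd79b, markers of B lymphocytes that did not exceed 41.6 and 40.3 TPM in the other 11 tumors. Another B lymphocyte marker, Ms4a1, was higher in tumor 9 (11.7 TPM) than in tumor 2 (2.18 TPM). The summed level of 5 mammary epithelial markers was 0.99 TPM in tumor 2 and 237 to 8335 TPM in the other 11 tumors. The low end of that range, tumor 8, held little Epcam and Cdh1 (2.03 and 3.77 TPM), which were at 239 to 1004 TPM and 82.6 to 302 TPM in the other 10. In tumor 8, Krt8 was at 128 TPM and Krt14 at 87.9 TPM. Isg15 in tumor 2 lay below all others by 0.81 of the whole range over mice, so relations between genes were read over the 8 mice without it. The targeted genes are no check on the genotype, since a value per gene does not separate a mutant from an intact allele: Brca1 was between 6.93 and 24.7 TPM and Trp53 between 30.2 and 74.2 TPM over the 12 tumors. TPM values hold no read counts, so sequencing depth is not known here and counting intervals are not given.

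The promoters show what many of these genes share. In the RefSeq promoter windows of GRCm38.p6, which run from 250 bases before to 50 bases after the transcription start, 35 of the 42 genes were found. The letters GAAANNGAAA, the core of the interferon-stimulated response element, stood on either strand in 19 of the 35 (54.3%), against 3.99% of all 27025 symbols in that table. By role, 10 of 18 antiviral effectors, 6 of 6 GTPases, 2 of 4 sensing genes, 1 of 5 transcription factors and 0 of 2 receptor chains held it. The letters TTCNNNGAA, the core of the STAT-binding gamma-activated site, stood in 12 of the 35 (34.3%), against 9.55% of all symbols. A match is a description of the letters in the window and not a known binding site. The 200 bases before the start of 8 genes follow, 5′ to 3′ on the strand of the gene, with each GAAANNGAAA or its reverse complement in capitals. They are the effectors Isg15, Ifit1, Ifit3, Ifit3b and Oas3, the GTPases Gbp2 and Irgm1, and for contrast the kinase Tbk1, whose window held no match.
Isg15 (chr4:156200819-156201018, minus strand): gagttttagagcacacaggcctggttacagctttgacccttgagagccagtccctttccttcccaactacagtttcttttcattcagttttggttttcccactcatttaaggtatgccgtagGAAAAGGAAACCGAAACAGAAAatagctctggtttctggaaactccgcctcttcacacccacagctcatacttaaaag
Ifit1 (chr19:34640689-34640888, plus strand): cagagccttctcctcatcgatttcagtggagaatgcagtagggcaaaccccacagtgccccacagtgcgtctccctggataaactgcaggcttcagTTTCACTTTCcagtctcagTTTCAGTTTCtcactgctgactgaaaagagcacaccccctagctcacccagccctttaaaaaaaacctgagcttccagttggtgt
Ifit3 (chr19:34583329-34583528, plus strand): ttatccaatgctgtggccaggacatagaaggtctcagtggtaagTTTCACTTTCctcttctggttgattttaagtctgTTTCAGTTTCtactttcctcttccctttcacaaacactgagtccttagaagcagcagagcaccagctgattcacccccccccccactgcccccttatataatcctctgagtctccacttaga
Ifit3b (chr19:34607757-34607956, plus strand): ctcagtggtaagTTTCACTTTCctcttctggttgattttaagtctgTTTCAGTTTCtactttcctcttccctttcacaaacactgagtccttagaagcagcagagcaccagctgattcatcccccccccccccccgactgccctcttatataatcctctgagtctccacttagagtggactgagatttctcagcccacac
Oas3 (chr5:120777660-120777859, minus strand): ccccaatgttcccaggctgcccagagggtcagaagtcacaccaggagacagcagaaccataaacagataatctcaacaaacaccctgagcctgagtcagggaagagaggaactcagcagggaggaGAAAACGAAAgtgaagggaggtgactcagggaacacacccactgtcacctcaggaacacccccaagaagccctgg
Gbp2 (chr3:142620463-142620662, plus strand): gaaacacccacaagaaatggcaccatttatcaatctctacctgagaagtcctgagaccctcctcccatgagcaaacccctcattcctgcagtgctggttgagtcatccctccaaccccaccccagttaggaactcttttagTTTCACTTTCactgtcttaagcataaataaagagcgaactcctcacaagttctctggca
Irgm1 (chr11:48871421-48871620, minus strand): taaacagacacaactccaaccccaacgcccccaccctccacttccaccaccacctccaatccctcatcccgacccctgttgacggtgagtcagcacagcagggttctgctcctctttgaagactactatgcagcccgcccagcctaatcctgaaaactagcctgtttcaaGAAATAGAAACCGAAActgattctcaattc
Tbk1 (chr10:121586795-121586994, minus strand): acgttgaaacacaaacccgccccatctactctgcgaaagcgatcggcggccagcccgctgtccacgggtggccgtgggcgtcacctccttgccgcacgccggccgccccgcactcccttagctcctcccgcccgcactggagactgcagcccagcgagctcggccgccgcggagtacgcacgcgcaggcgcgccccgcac

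Isg15 carried 3 overlapping matches whose first bases lie 78, 72 and 66 bases before its start, Irgm1 carried 2 that overlap, and the neighbours Ifit3 and Ifit3b carried 2 each in nearly the same surrounding sequence. Over the 8 mice, the SD of the log2(TPM + 1) level had a median of 0.61 among the 19 genes with a match and 0.51 among the 16 without one.

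Transcripts of the response were abundant in 11 of the 12 tumors. The summed level of the 42 genes ranged from 2270 TPM (tumor 4) to 5255 TPM (tumor 9) over 11 tumors, and was 683 TPM in tumor 2. The median gene was at 38.8 to 104 TPM in the 11 tumors and at 6.00 TPM in tumor 2. Tumor 2 was the lowest of the 12 tumors for 38 of the 42 genes, against 31.2% of all 16802 genes. The exceptions were Trim30a, Tbk1, Irf3 and Irgm1, and Irf3 was highest there. For 26 of the 42 genes, against 5.65% of all genes, tumor 2 lay below the other 8 mice by a gap over Dixon's critical value. Without tumor 2, the genes varied over 8 mice with a median SD of 0.62 on the log2(TPM + 1) scale, against 0.48 for all genes. An SD of 1 or more was reached by 6 of 42 genes (Ifit2, Ifit3, Ifit3b, Mx1, Trex1 and Gbp5), which is near the 15.0% of all genes. With tumor 2 included, 26 of 42 genes reached it, against 22.3% of all genes. In a bulk tumor, fewer cells of a type and less RNA per cell cannot be told apart.

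**Figure D1:**
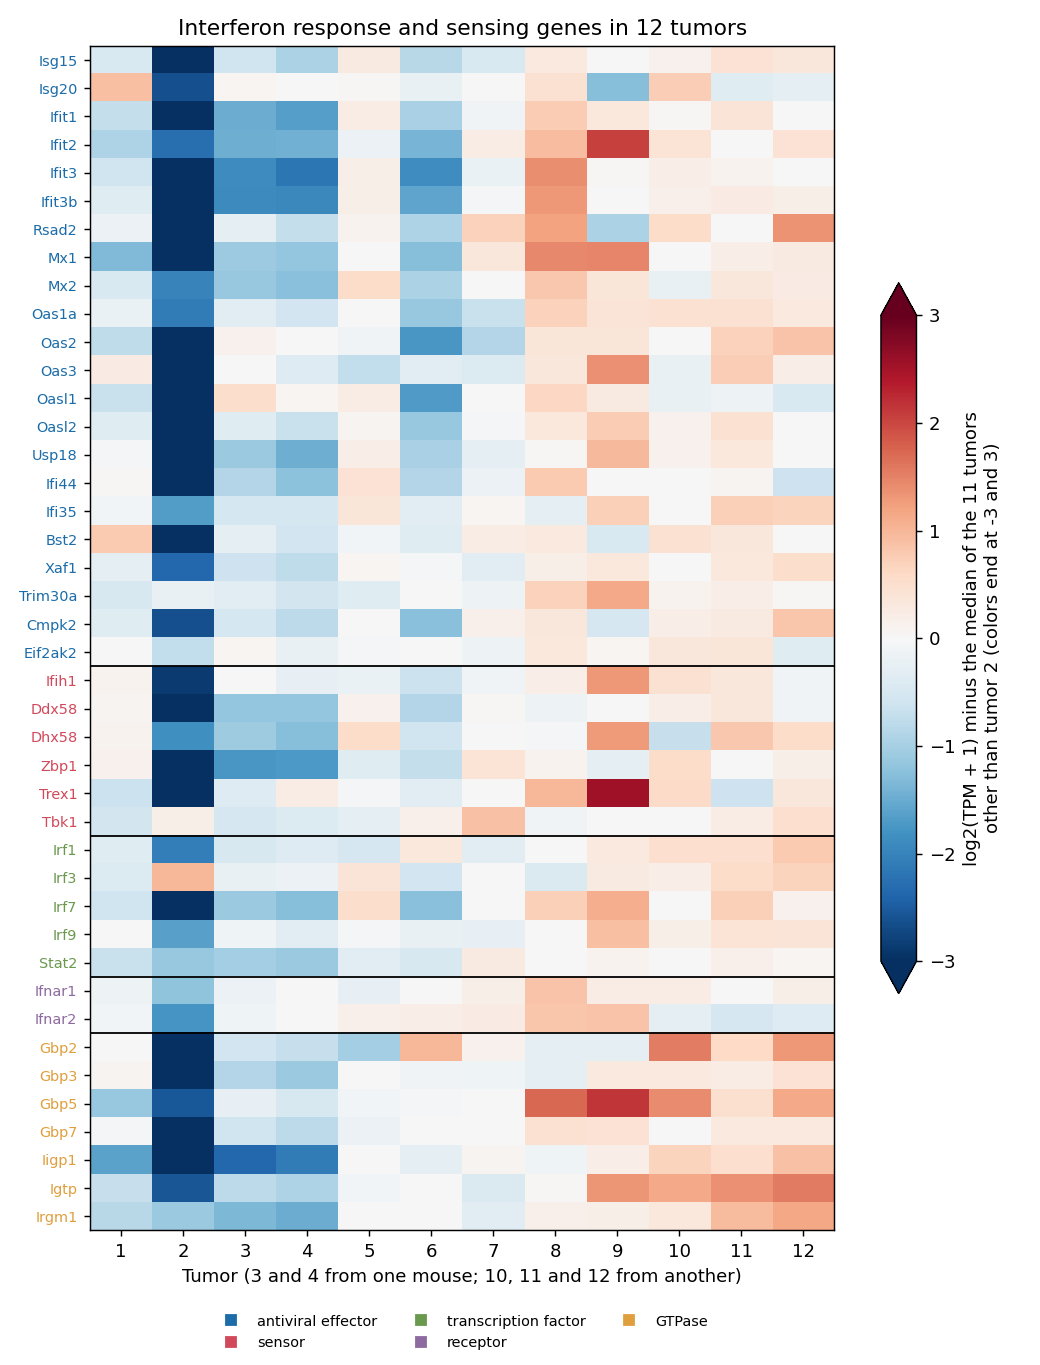
Each row is 1 of the 42 genes, grouped by role, and each column a tumor; color gives log2(TPM + 1) minus the gene's median over the 11 tumors other than tumor 2. Tumor 2 is the dark column with 38 of 42 genes at their lowest. Tumors 1, 3, 4 and 6 lie below the median for 17, 17, 20 and 21 of the 22 effectors, and tumor 7 for 13. The share of all genes below their median in these tumors was not computed.

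**Figure D2:**
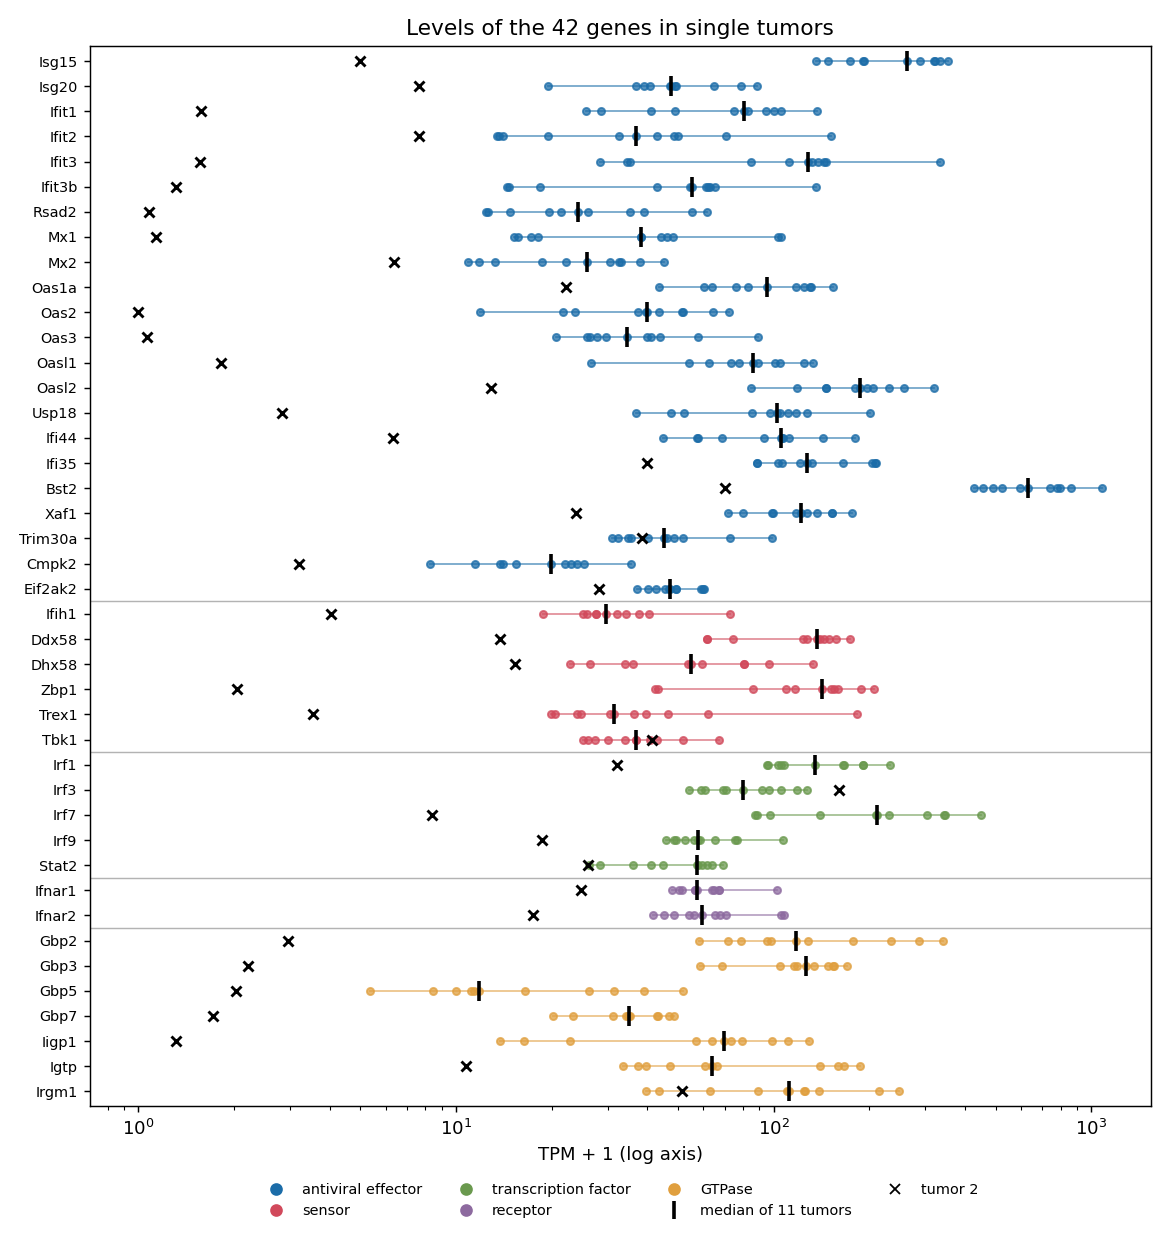
TPM + 1 on a log axis for each of the 42 genes, with 1 colored point per tumor for 11 tumors, a bar at their median and a cross for tumor 2. Bst2 is the most abundant gene in the 11 tumors, and the crosses lie left of all points except for Trim30a, Tbk1, Irf3 and Irgm1.

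The antiviral effectors had ranges of 1.65-fold to 12.2-fold over the 11 tumors, with a median of 4.62-fold. Isg15 encodes a ubiquitin-like protein that is conjugated to other proteins in interferon-treated cells. In tumors 1 to 12 it was at 191, 3.97, 173, 134, 317, 147, 190, 320, 262, 287, 352 and 333 TPM. Tumors 3, 4 and 6 were the low end of the 11 other tumors and tumors 5, 8, 11 and 12 the high end, a 2.62-fold range without tumor 2. Bst2 (tetherin), which holds budding virus on the cell surface, had the highest level of the 42 genes, with 672 ± 213 TPM (SD, n = 8 mice), from 425 TPM in tumor 4 to 1081 TPM in tumor 1, and it was at 69.3 TPM in tumor 2. In the order of mean TPM over 8 mice, Bst2 was followed by Isg15 (238 ± 76.5), Irf7 (235 ± 127) and Oasl2 (187 ± 71.0), and these last 3 did not differ beyond their spread. The lowest were Cmpk2 (17.1 ± 6.65) and Gbp5 (19.5 ± 16.6).

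Of the Ifit genes, whose proteins bind viral RNA and block its translation, Ifit3 and Ifit2 had the widest ranges of the 42. Ifit3 lay at 27.4 TPM in tumor 4, 127 TPM in the median of 11 tumors and 333 TPM in tumor 8, compared with 0.57 TPM in tumor 2. Ifit2 lay at 12.4 TPM in tumor 3, 35.9 TPM in the median and 151 TPM in tumor 9. Both ranges were about 12-fold (12.2 and 12.1). Ifit3 and Ifit3b share much of their transcript sequence: 41.1% of the 75-base words of Ifit3 also occur in Ifit3b, so reads may have been split between them. Ifit1 was low in the same tumors, from 24.7 TPM in tumor 4 to 136 TPM in tumor 8, and was at 0.57 TPM in tumor 2.

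The Mx proteins are dynamin-like GTPases that trap viral nucleocapsids. Mx1 ranged from 14.2 TPM in tumor 1 to 104 TPM in tumor 9, and tumors 8 and 9 (102 and 104 TPM) lay above the next tumor, at 47.3 TPM. Mx2 ranged from 9.89 to 44.0 TPM. The oligoadenylate synthetases activate RNase L when they meet double-stranded RNA. Oas1a ranged from 42.5 TPM in tumor 6 to 152 TPM in tumor 8, although 47.6% of its 75-base words also occur in Oas1g. Oas2 was listed at 0 in tumor 2 and ranged elsewhere from 10.9 TPM in tumor 6 to 71.5 TPM in tumor 12. Oas3 was 0.07 TPM in tumor 2 and had its highest value, 88.3 TPM, in tumor 9. Oasl1, a brake on Irf7 translation, ranged from 25.6 TPM in tumor 6 to 132 TPM in tumor 8, and in tumors 3 and 4 it was at 123 and 88.4 TPM, not at its low end.

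Other effectors differed in which tumor led. Rsad2 (viperin), an enzyme that makes a chain-terminating nucleotide, was highest in tumor 12 at 60.8 TPM and lowest of the 11 in tumor 9 at 11.4 TPM. Its neighbour on chromosome 12, the nucleotide kinase gene Cmpk2, was also highest in tumor 12 at 34.6 TPM. Isg20, an RNA exonuclease, was highest in tumor 1 at 87.8 TPM and lowest of the 11 in tumor 9 at 18.5 TPM. Usp18, which removes Isg15 from proteins and dampens the receptor, ranged from 36.0 TPM in tumor 4 to 199 TPM in tumor 9. Ifi44 ranged from 43.8 to 179 TPM, Xaf1 (a promoter of cell death) from 71.0 to 176 TPM, Ifi35 from 87.5 to 208 TPM and Trim30a from 29.9 to 97.5 TPM. Eif2ak2 (PKR), the kinase that stops translation when it binds double-stranded RNA, varied least of all 42 genes, from 36.0 to 59.5 TPM in the 11 tumors, a 1.65-fold range.

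The 7 GTPases are guanylate-binding proteins and immunity-related GTPases, families that take part in defense against intracellular microbes. Gbp2 was at 116, 1.95, 78.1, 71.0, 57.0, 234, 128, 94.1, 96.8, 340, 176 and 286 TPM in tumors 1 to 12. Its highest values were in tumors 10, 12 and 6, whereas tumors 8 and 9, high in the effectors, lay below the median of 116 TPM. Gbp5, which supports inflammasome activation, was instead highest in tumors 9 and 8 at 50.8 and 37.9 TPM and lowest of the 11 in tumor 1 at 4.37 TPM. Iigp1 had its low values in tumors 3 and 4, at 12.7 and 15.4 TPM, with 21.8 TPM in tumor 1 and 55.9 to 128 TPM in the rest of the 11 tumors. Igtp and Irgm1 were both highest in tumor 12, at 186 and 247 TPM, and lowest of the 11 in tumor 4, at 32.5 and 38.6 TPM. Gbp3 and Gbp7 varied less, from 57.8 to 169 TPM and from 19.2 to 47.5 TPM. Among the 11 tumors, tumor 10, 11 or 12 was the highest for 5 of the 7 GTPases and for 16 of all 42 genes, against 17.9% of all genes.

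The transcription factors and receptor chains had a median SD over 8 mice of 0.41 and 0.39 on the log2(TPM + 1) scale, against 0.64 for the effectors and 0.75 for the GTPases. The widest was Irf7. Irf7, which amplifies interferon production and is itself interferon-stimulated, was at 86.6 TPM in tumor 4, 210 TPM in the median of 11 tumors and 447 TPM in tumor 9, with 7.43 TPM in tumor 2. Irf1, an early target of interferon gamma, ranged from 94.4 TPM in tumor 5 to 230.5 TPM in tumor 12. Irf9 and Stat2, which act together in the type I signal, ranged from 44.9 to 106 TPM and from 25.2 to 68.1 TPM. Irf3, which is activated by phosphorylation rather than by a rise in its transcript, was between 52.9 and 127 TPM in the 11 tumors and at 159 TPM in tumor 2, the highest of the 12. Ifnar1 ranged from 46.9 to 102 TPM and Ifnar2 from 40.7 to 107 TPM, and both were lower in tumor 2, at 23.8 and 16.5 TPM.

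The 6 sensing genes among the 42 were lowest in tumor 2 except for Tbk1. Ddx58 lay at 60.7 and 60.8 TPM in tumors 3 and 4, at 73.3 TPM in tumor 6 and from 123 to 173 TPM in the rest of the 11 tumors, with 12.8 TPM in tumor 2. Ifih1 was highest in tumor 9 at 72.0 TPM, above the next value of 39.5 TPM in tumor 10, and lowest of the 11 in tumor 6 at 17.8 TPM. Dhx58 (LGP2), a regulator of both RNA sensors, ranged from 21.8 TPM in tumor 4 to 132 TPM in tumor 9. Zbp1, which binds Z-form nucleic acid and can start necroptosis, was at 41.2 and 42.2 TPM in tumors 3 and 4, between 84.8 and 206 TPM in the rest of the 11 tumors and at 1.05 TPM in tumor 2. Trex1, the exonuclease that clears cytosolic DNA, was at 182 TPM in tumor 9, 61.0 TPM in tumor 8 and 18.9 to 45.4 TPM in the rest of the 11 tumors. That value is uncertain, since 93.0% of the 75-base words of Trex1 also occur in transcripts annotated to its neighbour Atrip. Tbk1 was between 24.2 and 66.2 TPM in the 11 tumors, highest in tumor 7, and its 40.3 TPM in tumor 2 lay within that range.

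The cGAS and STING transcripts, which are not among the 42 genes, were not at their lowest in tumor 2. Mb21d1 was at 4.08, 9.40, 11.1, 8.10, 7.77, 1.91, 10.9, 12.0, 10.2, 7.34, 8.39 and 7.38 TPM in tumors 1 to 12. Tumors 6 and 1 were low and tumor 2 was in the middle. Tmem173 was lowest in tumor 7 at 38.4 TPM, and tumor 2 had the next lowest value, 51.5 TPM. Its median in the 11 other tumors was 87.7 TPM and its highest value 201 TPM, in tumor 9. Over 12 DNA and RNA sensing genes fixed as a list beside the 42, tumor 2 was lowest for 7, against 31.2% of all genes. Among them, the inflammasome sensor Aim2 ranged from 5.02 to 33.9 TPM in the 11 tumors, the DNA-binding Ifi204 from 39.2 to 230.2 TPM and the adaptor Mavs from 21.0 to 39.6 TPM. Of 6 nucleic acid clearance genes, Samhd1 was at 723 TPM in tumor 9 and from 102 to 228 TPM in the rest of the 11 tumors.

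Isg15 was set against 6 sensing genes over the 8 mice without tumor 2, with exact two-sided permutation tests of the pairings and Benjamini-Hochberg adjustment over the 6 relations. The highest r was with Ddx58, and it did not pass after adjustment (Pearson r = 0.73, exact permutation p = 0.021, adjusted p = 0.13; Spearman rho = 0.67, p = 0.083, adjusted p = 0.17). Without the 2 mice farthest from the median of Ddx58, r was -0.05 over 6 mice (exact permutation p = 0.92). Those 2 were the mice with tumors 3 and 4 and with tumor 6. The remaining 6 mice lay within 6.95 to 7.24 on the log2(TPM + 1) scale of Ddx58, so little range was left to show a relation. Without only tumors 3 and 4, r was 0.65, and without only tumor 6 it was 0.63. For Mb21d1, r was 0.52 (exact permutation p = 0.20, adjusted p = 0.31, rho = 0.29 with p = 0.50), and -0.26 without the mice of tumors 6 and 1. For Tmem173, r was 0.43 (exact permutation p = 0.31, adjusted p = 0.31, rho = 0.64 with p = 0.096), and 0.56 without the 2 farthest mice. For Zbp1, r was 0.53 (exact permutation p = 0.17, adjusted p = 0.31, rho = 0.45 with p = 0.27), and -0.45 without the 2 farthest. For Ifih1, r was 0.46 (exact permutation p = 0.28, adjusted p = 0.31, rho = 0.64 with p = 0.096), and for Trex1 it was 0.43 (exact permutation p = 0.31, adjusted p = 0.31, rho = 0.62 with p = 0.11). Without the 2 farthest mice these last values were 0.40 and 0.48. The adjusted p of rho lay between 0.17 and 0.50 for all 6. With tumor 2 included, as planned, r with Ddx58, Ifih1, Zbp1 and Trex1 was 0.81 to 0.96, and all 4 relations passed (exact permutation, adjusted p = 0.012 for Ddx58 and 0.026 for the other 3), calls that are lost without that tumor. With each of the 11 other tumors as a unit, which counts sister tumors separately, Ddx58 also passed (r = 0.78, permutation p = 0.0044, adjusted p = 0.027). With tumor 2, r with Mb21d1 was -0.038. With Irf7 in place of Isg15 over the 8 mice, Ddx58, Ifih1 and Trex1 passed 0.05 before adjustment (exact permutation p = 0.029, 0.027 and 0.024). Mb21d1, Tmem173 and Zbp1 did not, and no adjusted p is given for Irf7. With sister tumors averaged and tumor 2 left out, no relation of Isg15 with a sensing gene passed 0.05 after adjustment, which does not show that none exists.

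**Figure D3:**
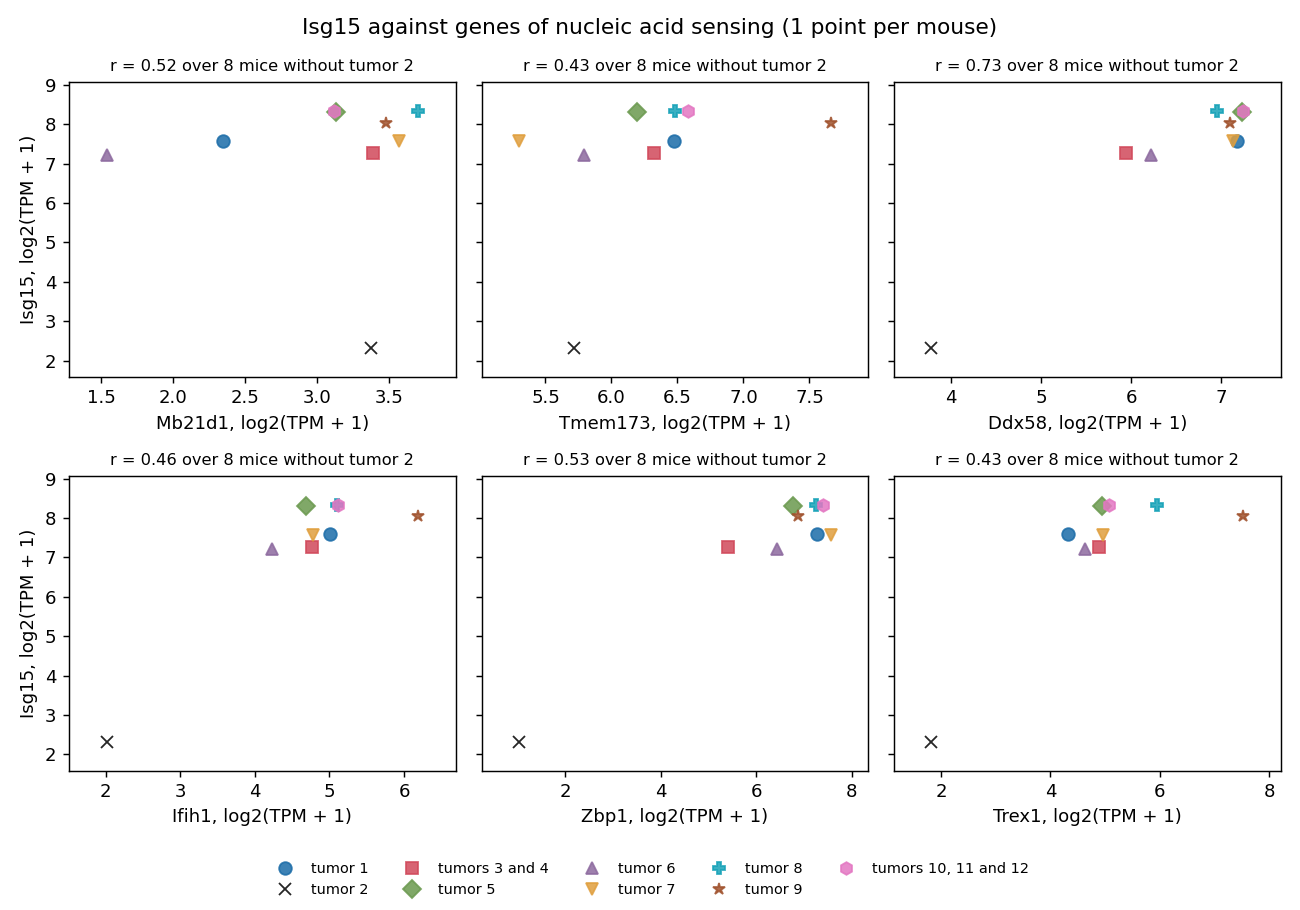
Isg15 against 6 sensing genes, both as log2(TPM + 1), with 1 point per mouse (sister tumors averaged). Tumor 2 (cross) lies far below the other mice in Isg15 in every panel, and it is at the low end of the x axis for Ddx58, Ifih1, Zbp1 and Trex1 but not for Mb21d1.

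Within the 42 genes, the closest followers of Isg15 were effectors and Irf7. Over the 8 mice, 7 of the 41 other genes had a Pearson r of 0.8 or more with it, against 0.363% of all genes: Mx2 (0.91), Ifit1 (0.89), Ifit3 (0.88), Oas1a (0.88), Irf7 (0.88), Ifit3b (0.86) and Ifi44 (0.83). These are genes known to be induced together, and the 8 values share the same libraries. The median r was 0.73 for the other effectors, 0.61 for the GTPases, 0.58 for the transcription factors, 0.49 for the sensing genes and -0.02 for all genes. Values near 0 were found for Tbk1 (0.01), Isg20 (-0.05) and Gbp2 (-0.16).

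Transcripts of the interferons themselves were near the floor. Of 10 interferon genes, 8 were below 1 TPM in every tumor, and all 10 were listed at 0 in tumor 2. Ifnb1 was highest in tumor 7 at 1.41 TPM, and Ifng in tumor 9 at 2.28 TPM with 0.69 TPM in tumor 8. Ifna1 and Ifna5 were listed at 0 in every tumor. Gbp2 was set against Ifng (r = -0.14, exact permutation p = 0.73, adjusted p = 0.83, rho = 0.07 with p = 0.89) and against the T cell gene Cd3e (r = 0.10, exact permutation p = 0.83, adjusted p = 0.83, rho = 0.21 with p = 0.62) over 8 mice, and neither passed. Without the 2 farthest mice these values of r were 0.39 and -0.03. With the GTPase Igtp in place of Gbp2, r was 0.64 with Ifng (exact permutation p = 0.056) and 0.67 with Cd3e (exact permutation p = 0.068), both before adjustment.

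Other genes downstream of interferon were fixed as lists beside the 42. The 3 interferon-induced chemokines Cxcl9, Cxcl10 and Ccl5 summed to 667 TPM in tumor 8, 406 TPM in tumor 9, 52.3 TPM in tumor 6 and 2.47 TPM in tumor 2. Of the 3, Cxcl9 was instead highest in tumors 12 and 10 (64.0 and 60.6 TPM), ahead of tumors 9 and 8 (50.8 and 48.5 TPM). The 13 other interferon-stimulated genes summed to 4697 TPM in tumor 9, 1012 to 2299 TPM in the rest of the 11 tumors and 436 TPM in tumor 2, with Lgals3bp (1938 TPM) and the immunoproteasome gene Psmb8 (983 TPM) prominent in tumor 9. The GTPase gene Ifi47 was instead highest in tumor 12 (160.5 TPM, with 134 TPM in tumor 9). Ifi44l, chosen for mention after its values were seen, was at 0.17, 0 and 0 TPM in tumors 10, 11 and 12 and between 5.42 and 85.4 TPM in the rest of the 11 tumors, while its neighbour Ifi44 was at 105, 111 and 67.6 TPM in the same 3 tumors. The signalling gene Nlrc5, named after its value was seen, had r = 0.92 with Isg15 over 8 mice.

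Markers of host cells differed between the same tumors. Tumor 9 had the highest summed T lymphocyte markers (81.7 TPM, with 65.4 TPM in tumor 8, of which Cd4 made up 41.6 TPM, and 3.26 to 19.9 TPM in the rest of the 11 tumors) as well as the highest plasmacytoid dendritic markers (30.8 TPM, against 0.03 to 4.27 TPM), conventional dendritic markers (32.7 TPM, against 2.99 to 11.7 TPM) and Cd79a (41.6 TPM, with 2.88 TPM in the next of the 11). Tumor 8 had the highest summed macrophage (3572 TPM), NK (38.7 TPM) and fibroblast markers (2615 TPM) and the lowest summed epithelial markers of the 11 (237 TPM). Dcn made up 1732 TPM of its fibroblast sum, while the collagen genes Col1a1 and Col1a2 and Lum were highest in tumor 4 (599, 704 and 144 TPM, against 269, 397 and 105.5 TPM in tumor 8). Of the epithelial markers, Krt14 was instead lowest of the 11 in tumor 9 (11.1 TPM, with 87.9 TPM in tumor 8). Over 8 mice, Isg15 had r = 0.64 with the macrophage gene Adgre1 (exact permutation p = 0.091, adjusted p = 0.54, rho = 0.57 with p = 0.15), 0.47 with the leukocyte gene Ptprc (exact permutation p = 0.23, adjusted p = 0.69, rho = 0.48 with p = 0.24), 0.25 with Cd3e (exact permutation p = 0.58, adjusted p = 0.83, rho = 0.36 with p = 0.39) and -0.36 with Epcam (exact permutation p = 0.49, adjusted p = 0.83, rho = -0.14 with p = 0.75). Without the 2 farthest mice they were 0.33, 0.59, 0.76 and 0.09. No relation among the 6 with cell markers passed over these 8 mice. With tumor 2 included, as planned, Isg15 with Adgre1 passed (r = 0.90, exact permutation, adjusted p = 0.031), a call that is lost without that tumor. The part of these cells in the interferon values was not tested.

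The interferon state of each tumor can be given by a score, the median over the genes of a role of log2(TPM + 1), each gene minus its mean over 9 mice. Tumor 2 is among the 9 mice and lowers most of these means, so 0 is not the middle of the 11 other tumors. The effector score was highest in tumor 8 (1.07) and tumor 9 (0.85), followed by tumors 11, 12 and 10 (0.78, 0.73 and 0.71), tumor 5 (0.59) and tumor 7 (0.42). It was lower in tumor 1 (0.14), tumor 3 (-0.16), tumor 4 (-0.34) and tumor 6 (-0.37), and it was -3.42 in tumor 2. The 11 tumors thus spanned 1.44, or 2.72-fold, and tumor 2 lay a further 3.05 below. The sensing score was highest in tumor 9 (1.04) and lowest of the 11 in tumor 3 (-0.54). The GTPase score was highest in tumors 12, 10 and 11 (1.44, 1.33 and 1.18), ahead of tumor 9 (1.03), and lowest of the 11 in tumor 4 (-0.56). Tumor 6 was the lowest of the 11 in effectors but had a GTPase score of 0.45, and tumor 8 was the highest in effectors but had a GTPase score of 0.47, below those of tumors 9 to 12. Tumor 1 also had a lower GTPase score (-0.48) than effector score (0.14). Over 8 mice the GTPase score had r = 0.60 with the effector score, and a difference between the roles was not tested. By single genes, tumor 9 was the highest of the 11 for 13 of 42 genes (16.8% of all genes), tumor 8 for 9 (14.1% of all genes), and tumor 3 or 4 was the lowest of the 11 for 23 (12.7% of all genes).

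**Figure D4:**
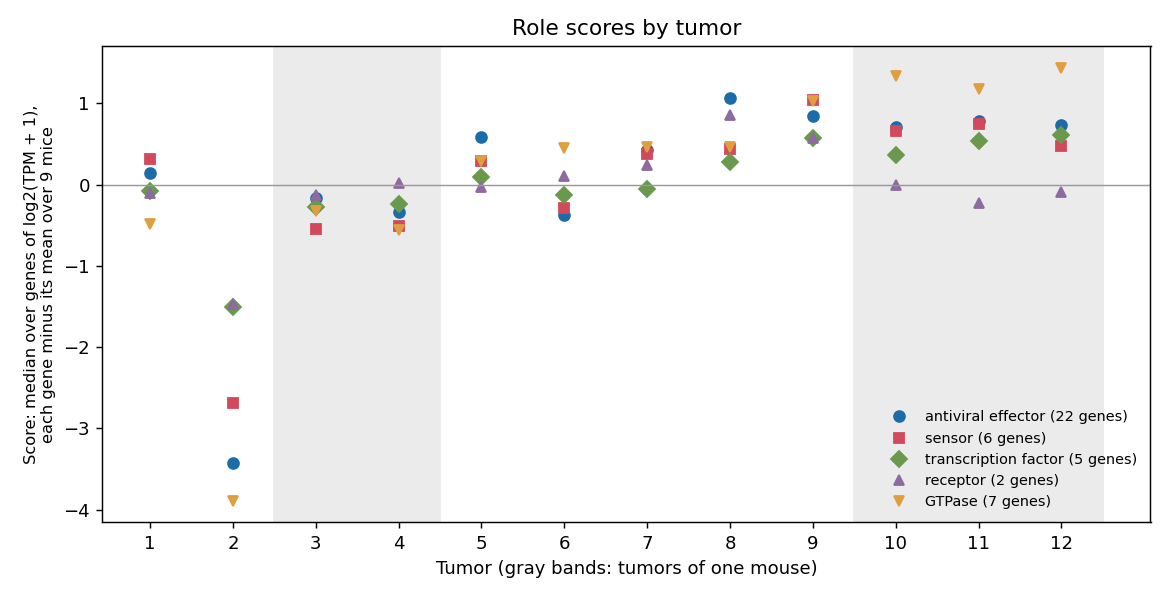
Score of each role in each tumor: the median over its genes of log2(TPM + 1), each gene minus its mean over 9 mice, with gray bands for tumors of the same mouse. Tumor 2 is lowest in all 5 roles, and the GTPase score is highest in tumors 10 to 12 (1.18 to 1.44).

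Sister tumors differed in the 42 genes about as much as in all genes, and distances between tumors of different mice were not computed. Tumors 3 and 4 differed by a median of 0.18 on the log2(TPM + 1) scale over the 42 genes, against 0.19 over all genes, and by 0.5 or less for 41 of 42 genes, against 86.1% of all genes. Trex1 differed most (0.60). Tumors 10, 11 and 12 spanned a median of 0.45, against 0.49 over all genes, and 1 or less for 38 of 42 genes, against 83.1% of all genes, with the widest span in Dhx58 (1.50). The effector scores of the sisters differed by 0.18 and spanned 0.07. Only 2 mice gave more than 1 tumor, so the agreement within a mouse was not tested.

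The genes outside the list that most resembled the effector score over 9 mice were Ly6a (r = 0.99), Slfn2 (0.98), Saraf (0.98), Tnfsf12 (0.98), Cxcl10 (0.98), Zfp36 (0.98), C1qb (0.98), C1qa (0.97), Pik3cb (0.97) and Shisa5 (0.97). These values are dominated by tumor 2, where all 10 genes lay below their lowest value elsewhere. Over the 8 mice the same genes had r between 0.77 (Pik3cb) and 0.94 (Shisa5, Ly6a). The list was largely replaced when genes were ranked over the 8 mice: Shisa5 and Ly6a held ranks 6 and 7, and the other 8 genes lay between rank 18 (Zfp36) and rank 266 (Pik3cb). Of the 42 genes, 6 lie on chromosome 11, which carries the MADM cassettes and both mutant alleles. Ifi35 (101448407 to 101458698, plus strand, GRCm38) lies 30066 bases from Brca1, and its level varied over 8 mice with an SD of 0.43. The others are Dhx58, Xaf1, Igtp, Irf1 and Irgm1, between 784493 and 52617081 bases away.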

How the data were processed

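RNA from 12 tumors was sequenced as stranded mRNA libraries (75-bp paired-end reads). The authors trimmed adapters with fastq-mcf, aligned reads to the GRCm38.84 transcriptome with HISAT2 and deposited TPM values per Ensembl gene from StringTie 2.1.6, 1 column per tumor. TPM divides by transcript length and scales each tumor to a fixed total, so a few abundant genes lower all others, and depth is unknown.

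Values were analysed as log2(TPM + 1) in Python 3.11.15 with numpy 2.4.6, pandas 2.3.3 and scipy 1.17.1, with sister tumors averaged. Shares of all genes use the 16802 genes whose mean over mice was at least 1 TPM. That mean had first been taken over the 12 tumors (16779 genes), and the mean over mice was adopted after those results had been seen, to follow the averaging of sister tumors and to match the gene number of earlier results on these data. Tests are exact permutation tests of the pairings, tried on simulated data, except that those with 11 tumors as units drew 100000 resamples. The fits were planned over 9 mice. Because tumor 2 stood apart in Isg15 and Gbp2 (Dixon ratios 0.81 and 0.67, both over the critical value), those over 8 mice are given instead, a choice made after seeing the data and applied also where tumor 2 did not stand apart in the second gene. Positions are from GENCODE vM21 (GRCm38). Members, lists and roles were chosen with earlier results of these data known. All 42 members were to be named, with the pathway lists, the cell markers, Brca1, Trp53 and the 10 other genes closest to the effector score over 9 mice. Some list genes, and list totals that hold them, are not reported here. The alternatives were a pseudocount of 0.1, a minimum on mean TPM, tumors as units, rescaling without mitochondrial genes, other index genes, list means and leaving out each mouse.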

Additional observations from a re-analysis of the deposited data

Results flagged for a closer look

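Over 9 mice, tumor 2 was set apart at the low end of 26 of the 42 genes and of all 5 role scores, by a gap to the nearest mouse over Dixon's critical value at 95% for 9 values. Over all genes tested, 5.65% had tumor 2 set apart in this way. Chance gives such a gap, for any mouse at either end, in about 1 in 20 groups. That rate is no reference for the 5.65%, which counts only tumor 2 at the low end. The genes of 1 tumor are also not independent. No other mouse was set apart this way in the 47 groups of values. The values in tumor 2 on the log2(TPM + 1) scale were, among the effectors, Isg15 (2.31), Ifit1 (0.652), Ifit3 (0.649), Ifit3b (0.395), Rsad2 (0.116), Mx1 (0.187), Oas2 (0), Oas3 (0.092), Oasl1 (0.865), Oasl2 (3.69), Usp18 (1.50), Ifi44 (2.66), Bst2 (6.14), Xaf1 (4.58) and Eif2ak2 (4.82). Among the other genes they were Ifih1 (2.01), Ddx58 (3.79), Zbp1 (1.03), Irf1 (5.00), Irf7 (3.07), Irf9 (4.22), Ifnar2 (4.13), Gbp2 (1.56), Gbp3 (1.15), Gbp7 (0.780) and Iigp1 (0.392). The role scores of tumor 2 were antiviral effector (-3.42), sensor (-2.69), transcription factor (-1.51), receptor (-1.46) and GTPase (-3.89). The largest relative gap was that of Isg15 (Dixon ratio 0.81), with 7.21 in the nearest mouse, followed by Gbp3 (0.79) and Gbp7 (0.76). In the same tumor the 5 epithelial markers summed to 0.99 TPM and Cd79a was at 609 TPM, and the part of these cells in the low values was not tested.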

How the results depend on the processing

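No paired analysis was possible because the study holds a single condition. With tumor 2 included, as in the planned fits over 9 mice, r with Isg15 was -0.038 for Mb21d1, 0.91 for Ifih1, 0.96 for Zbp1, 0.81 for Trex1, -0.30 for Ptprc, 0.90 for Adgre1 and 0.65 for Epcam, and r of Gbp2 with Ifng was 0.16. Over these 9 mice, 33 of the 41 other members reached r = 0.8 with Isg15. The share of all genes is not given over 9 mice, so that count has no reference. With Irf7 in place of Isg15 over 8 mice, r was 0.76 for Ddx58, 0.71 for Ifih1, 0.73 for Trex1 and 0.79 for Adgre1. With each of the 11 tumors (12 were planned) as a unit, r was 0.78 for Ddx58 and 0.63 for Zbp1, and with Igtp in place of Gbp2, r with Ifng was 0.64 and r with Cd3e was 0.67. Before adjustment, these values of Ddx58, Ifih1, Zbp1, Trex1 and Adgre1 passed 0.05 and the others did not. After it, Ddx58, Ifih1, Zbp1, Trex1 and Adgre1 (adjusted p = 0.031) passed over 9 mice.

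Leaving out each of the 8 mice moved r of Isg15 with Ddx58 between 0.63 and 0.83, with Mb21d1 between 0.18 (without tumor 6) and 0.71, with Ifih1 between 0.24 (without tumor 6) and 0.61, with Zbp1 between 0.26 (without tumors 3 and 4) and 0.69, with Adgre1 between 0.50 and 0.79 and with Epcam between -0.47 and 0.19 (without tumor 8), and r of Gbp2 with Cd3e between -0.25 (without tumor 5) and 0.38. Before adjustment, the p of the relation with Ddx58 was over 0.05 without tumors 3 and 4, tumor 5, tumor 6, tumor 9, or tumors 10, 11 and 12, and that with Adgre1 was under 0.05 without tumor 5 or tumor 7. The ranges of the effector, GTPase and sensor scores were 4.49, 5.33 and 3.74 over 12 tumors. With the genes centred again on the remaining mice, they ran from 1.47, 2.29 and 1.53 without tumor 2 to 4.49, 5.33 and 3.79. The number of genes with an SD of 1 or more was 6 without tumor 2 and at most 27, and that with r of 0.8 or more was 7 to 11, the latter without tumor 9. The causes were not tested, beyond the left-out tumor itself. The pseudocount of 0.1, the rescaling, the list means and the minimum on mean TPM (not possible for Ifng) turned no sign and moved no call of a relation, and 27 in place of 26 genes reached an SD of 1 with the pseudocount of 0.1. The minimum taken over tumors left 16779 genes, with 22.1% at an SD of 1 or more over 9 mice, 14.8% over 8 mice and 0.375% at r of 0.8 or more, and it left the 42 genes and their counts unchanged. Without read counts, what depth limits cannot be given.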
